A study of Mus musculus with 23 samples.

Results

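The 32 genes described here encode the machinery that stores neurotransmitter in synaptic vesicles, fuses those vesicles with the presynaptic membrane and recovers them afterwards. They were chosen by name, as the entries of 2 tables of RPKM values (read numbers corrected for gene length and for library size) that match a list of presynaptic vesicle release genes, with a tissue mean no lower than 0.5 RPKM. All 32 were present in both tables and passed that minimum in both tissues, out of 20863 gene names in all. All animals were C57BL/6 mice at 6 months of age. Control animals (NTg) had no transgene, F08 animals expressed unexpanded human C9orf72, and F112 animals (labelled F112exp) expressed its expanded form. The series title names bacterial artificial chromosome (BAC) transgenic mice, and the sources used here do not name a promoter or cell type that limits the transgene. With 1 line per transgene, line and repeat effects cannot be told apart. Cortex was measured in 4 NTg, 4 F08 and 3 F112 mice, and lumbar spinal cord in 4 mice of each genotype. Of the 12 mice, 11 gave both tissues.

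At a nerve terminal, an action potential lets calcium into the active zone, a protein scaffold at which vesicles are docked and primed. Calcium binds synaptotagmin on the vesicle, and the SNARE proteins of vesicle and plasma membrane zip together and fuse both membranes. The vesicle membrane is then retrieved by endocytosis. Most of these proteins exist as close paralogs, and fast-firing synapses of the brain stem, spinal cord and parvalbumin interneurons are known for using Syt2, Vamp1 and Cplx1 where many forebrain synapses use Syt1, Vamp2 and Cplx2.

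Syt2 with Syt1, Vamp1 with Vamp2 and Cplx1 with Cplx2 are among the pairs in which the more abundant paralog differed between cortex and cord. The 250 bases before the RefSeq start of Syt2, Syt1, Vamp1 and Cplx1 are shown (RefSeq, build GRCm38.p6, gene strand, 5′ to 3′), because members of this group that move together or apart can be compared in base composition and GC boxes. Capitals mark each GC box, the letters GGGCGG or their reverse complement CCGCCC.
Syt2: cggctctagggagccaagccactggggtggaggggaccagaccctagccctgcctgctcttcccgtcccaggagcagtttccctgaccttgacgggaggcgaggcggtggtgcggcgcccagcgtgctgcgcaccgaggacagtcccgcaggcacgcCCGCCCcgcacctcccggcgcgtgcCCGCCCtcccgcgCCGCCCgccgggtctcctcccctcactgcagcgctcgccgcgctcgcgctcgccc
Syt1: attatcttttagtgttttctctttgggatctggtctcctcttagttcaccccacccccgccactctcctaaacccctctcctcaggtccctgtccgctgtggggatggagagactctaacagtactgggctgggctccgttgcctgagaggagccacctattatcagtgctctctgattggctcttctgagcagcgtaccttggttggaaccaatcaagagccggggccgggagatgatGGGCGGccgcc
Vamp1: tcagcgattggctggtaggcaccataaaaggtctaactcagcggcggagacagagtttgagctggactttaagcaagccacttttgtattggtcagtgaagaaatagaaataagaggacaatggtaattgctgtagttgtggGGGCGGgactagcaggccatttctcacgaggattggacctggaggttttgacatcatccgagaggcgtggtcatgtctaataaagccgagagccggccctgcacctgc
Cplx1: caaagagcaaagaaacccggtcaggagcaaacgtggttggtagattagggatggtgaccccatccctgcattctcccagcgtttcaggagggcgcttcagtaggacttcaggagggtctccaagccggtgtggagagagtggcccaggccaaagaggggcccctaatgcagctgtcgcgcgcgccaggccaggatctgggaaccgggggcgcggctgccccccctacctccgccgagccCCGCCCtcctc

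The Syt2 window (chr1:134646362-134646611, plus strand) held 76.0% G and C, 30 CpG dinucleotides and 3 GC boxes. The Syt1 window (chr10:109010976-109011225, minus strand) held 56.4% G and C, 8 CpG dinucleotides and 1 GC box. The Vamp1 window (chr6:125215331-125215580, plus strand) had 50.4% G and C with 9 CpG dinucleotides, and the Cplx1 window (chr5:108550028-108550277, minus strand) had 64.8% with 15, each with 1 GC box. Of the 32 genes, 27 had an entry in the promoter table, and Snap25, Vamp2, Rims2, Syngr3 and Doc2b had none. Searching both strands, a GC box was present in 16 of the 27 windows and in 32.7% of all 32851 promoter windows of the same length. These sets are unlike. For the 27, 1 window per gene was taken, the one nearest the start in the GENCODE M21 annotation. The full set holds every entry, several for some genes, without regard to expression in these tissues. The median G and C content was 61.2% over the 27 and 52.4% over all windows, and the median CpG number was 16 against 6. The cyclic AMP response element TGACGTCA was found in 1 window, that of Syn1, and in 1.55% of all windows. The letters TATAAA or TTTATA were found in 1 window, that of Sv2b, and in 12.4% of all. These are matches of letters and not measured binding sites. RefSeq starts can differ from those of the GENCODE M21 annotation. The end of the window was 65 bases from the GENCODE start for Syt2, 7 for Syt1, 30 for Vamp1 and 3 for Cplx1, and the Syt1 and Vamp1 windows reach into the GENCODE gene. For Cplx2 it was 68793 bases away, for Rims1 164, for Amph 146 and for Syp 109, and which start these tissues use was not tested.

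Cortex libraries held 9398450 to 14715900 alignments and spinal cord libraries 28479400 to 38811100, and the median standard error of a genotype difference over the 32 genes was 0.12 log2 units in cortex and 0.042 in cord for F112 against NTg. By the markers Slc17a7, Hoxc10 and Slc6a5, the libraries matched their labelled tissues. Slc17a7, the main vesicular glutamate transporter of cortex, was 166 to 305 RPKM in cortex and 0.05 to 1.81 RPKM in cord. Hoxc10, a gene of lumbar segment identity, was 0 to 0.20 RPKM in cortex and 23.8 to 34.0 RPKM in cord, and Slc6a5, the glycine transporter of inhibitory cord neurons, was 0 to 0.04 and 60.6 to 75.1 RPKM. Cortex was prepared by Ion Torrent protocols and cord by Illumina protocols, so tissue and platform are the same split and cannot be told apart. Large gaps were also seen outside the marker and presynaptic genes. Gapdh was 83.6 to 180 RPKM in cortex and 1353 to 1572 RPKM in cord. Rn45s went the other way, at 587 to 2640 and 31.5 to 459 RPKM. The part of platform in such gaps, and in the fold differences below, was not tested. In whole tissue, fewer cells of a type and less RNA per cell cannot be told apart either. All 14 genes of a general neuron list were detected in both tissues and summed to 1466 to 1709 RPKM in cortex and 3435 to 3843 RPKM in cord. Genes of this list went both ways. Rbfox3 and Gap43 were higher in cortex (log2 difference, cortex minus cord, 0.40 and 1.16). The others were higher in cord, most of all the neurofilament genes Nefh (-4.42), Nefm (-3.58) and Nefl (-2.94). All 10 genes of a myelin list summed to 645 to 1764 RPKM in cortex and 7199 to 8241 RPKM in cord. The part of these sums in the tissue differences below was not tested.

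Between cortex and cord, the presynaptic genes moved in both directions and by large amounts. Of the 32 genes, 17 were higher in cortex and 13 were higher in cord by limma at an adjusted p under 0.05, while 2, Rab3a and Syp, did not pass. Across all 13101 genes tested, 85.9% passed in either direction (86.3% at an unadjusted p under 0.05, as did 30 of the 32), 21.5% as higher in cortex and 64.4% as higher in cord, so passing the test is the usual state of a gene in this comparison. The median log2 difference (cortex minus cord, on log2 of RPKM plus 0.5) was 0.23 over the 32 genes and -0.38 over all genes, and 21 of the 32 lay above the median of all genes. Median-of-ratios scaling moved the all-gene median to 0.00 and quantile normalization to -0.03. With those scalings the split of the 32 genes was 21 higher in cortex against 9 in cord, and 22 against 8. The shares of all genes given above hold for the values as deposited. They cannot be set beside these 2 splits. The shares of all genes under those scalings are not given here, so these splits do not set the 32 genes apart. The lowest and highest library values of the 2 tissues did not overlap for 27 of the 32 genes. The share of all genes without such overlap was not measured, so this count does not set the 32 apart.

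**Figure D1:**
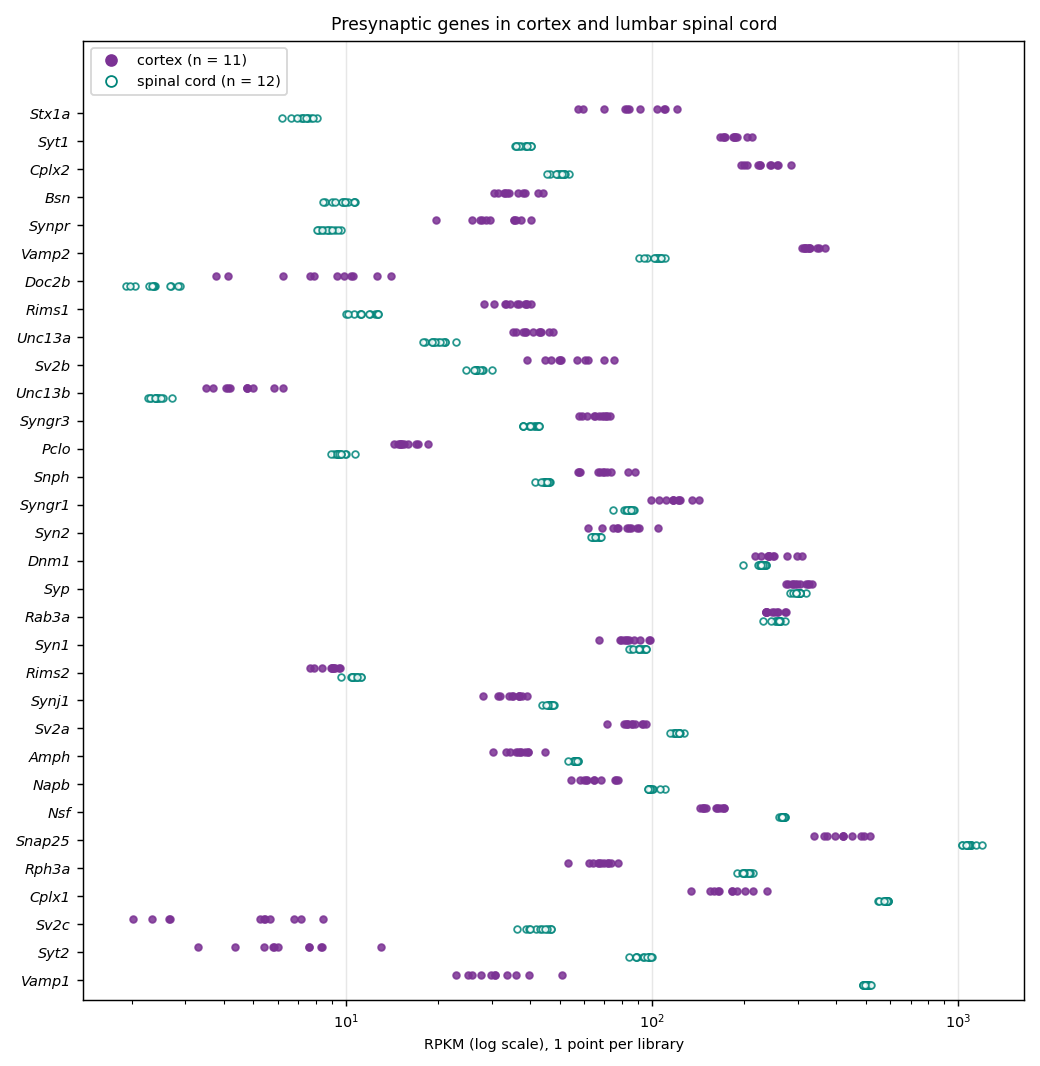
RPKM of each of the 32 genes on a log axis, 1 point per library, with cortex filled and spinal cord open, ordered by the fitted difference between the tissues. Stx1a, Syt1 and Cplx2 at the top are far higher in cortex, Vamp1, Syt2 and Sv2c at the bottom are far higher in cord, and Syp and Rab3a in the middle overlap.

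Among the calcium sensors, synaptotagmins 1 and 2 went in opposite directions. Syt1, a calcium sensor of fast release, had a lowest, median and highest level of 167, 185 and 212 RPKM over 11 cortex libraries and of 35.8, 38.7 and 40.4 RPKM over 12 cord libraries. Every cortex library was above every cord library, by a fitted 4.78-fold (log2 difference 2.26, SE 0.041, limma adjusted p = 6.33e-22). Syt2, the sensor of fast-firing synapses, was 3.30, 6.02 and 13.1 RPKM in cortex and 84.2, 95.4 and 100.5 RPKM in cord. Here every cord library was the higher one, by 13.6-fold (log2 difference -3.77, SE 0.133, limma adjusted p = 3.04e-17). Rph3a, or rabphilin, which binds Rab3 on the vesicle, was also higher in cord, at 203 ± 6.57 RPKM (SD, n = 12) against 68.0 ± 6.53 (n = 11). Doc2b, a high-affinity calcium sensor, was higher in cortex at 8.78 ± 3.25 against 2.39 ± 0.32 RPKM (log2 difference 1.61).

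The SNARE proteins and their helpers split too, with 3 of 8 higher in cortex (21.5% of all genes) and 5 of 8 in cord (64.4%). Vamp1, a vesicle SNARE, was 23.01, 30.7 and 50.9 RPKM (lowest, median, highest) in cortex and 489, 503 and 520.5 RPKM in cord. The cord libraries lay far above all cortex libraries, by 15.9-fold (log2 difference -3.99, SE 0.090, limma adjusted p = 1.92e-20). Vamp2, the vesicle SNARE of most forebrain synapses, was 309, 326 and 369 RPKM in cortex and 90.7, 104 and 110.1 RPKM in cord, with no overlap (log2 difference 1.68, SE 0.038, limma adjusted p = 1.96e-20). Stx1a, a SNARE of the plasma membrane, was 57.6, 84.1 and 121 RPKM in cortex and 6.20, 7.36 and 8.04 RPKM in cord. It was the gene with the largest excess in cortex among the 32 in these libraries (11.2-fold, log2 difference 3.48, SE 0.102, limma adjusted p = 1.18e-18).

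Snap25, the other plasma membrane SNARE and the highest of the 32 genes per length in both tissues, had mean levels of 426 ± 55.9 RPKM in cortex and 1089 ± 46.0 in cord (log2 difference -1.37). Complexins clamp and promote SNARE-driven fusion, and the pair parted like the synaptotagmins. Cplx1 was 134, 182 and 237 RPKM in cortex and 547, 581 and 592 RPKM in cord (log2 difference -1.69, SE 0.069, limma adjusted p = 3.91e-16). Cplx2 was 196, 225 and 286 RPKM in cortex and 45.4, 50.4 and 53.7 RPKM in cord (log2 difference 2.21, SE 0.046, limma adjusted p = 5.52e-21). Neither gene overlapped between the tissues. Nsf, the ATPase that takes used SNARE complexes apart, was 158 ± 11.2 RPKM in cortex and 268 ± 3.31 in cord, and its adaptor Napb was 65.7 ± 7.80 and 100.1 ± 4.17 RPKM. The Napb difference of -0.60 shrank to -0.07 with quantile normalization (adjusted p = 0.216).

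Of the 10 vesicle proteins, 5 were higher in cortex (21.5% of all genes) and 3 higher in cord (64.4%). Sv2c, a vesicle glycoprotein, was 2.03, 5.41 and 8.44 RPKM in cortex and 36.3, 43.3 and 47.0 RPKM in cord, without overlap (8.69-fold higher in cord, log2 difference -3.12, SE 0.187, limma adjusted p = 4.19e-13). Sv2b was 55.1 ± 11.0 RPKM in cortex and 27.1 ± 1.25 in cord (log2 difference 1.00). Sv2a, the target of the drug levetiracetam, was 85.7 ± 6.76 and 121 ± 3.46 RPKM (log2 difference -0.50), and this direction turned with quantile normalization (0.07). Synpr, or synaptoporin, was higher in cortex at 31.3 ± 6.11 against 8.76 ± 0.52 RPKM. The synaptogyrins Syngr1 and Syngr3 were higher in cortex by 0.51 and 0.71 log2 units.

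Syp and Rab3a did not pass as deposited but passed as higher in cortex under both other scalings. Syp, or synaptophysin, was 303 ± 20.6 RPKM in cortex and 300.5 ± 9.05 in cord (log2 difference 0.01, 95% interval -0.06 to 0.09, limma adjusted p = 0.764), and Rab3a, the vesicle GTPase, was 249 ± 14.7 and 257 ± 10.7 RPKM (-0.05, -0.12 to 0.02, limma adjusted p = 0.198). With median-of-ratios scaling and quantile normalization the differences were 0.45 and 0.47 for Syp and 0.39 and 0.38 for Rab3a. Of the synapsins, which tether vesicles to each other, Syn2 was higher in cortex by 0.31 (0.24 in NTg libraries alone, limma adjusted p = 0.0544). Syn1 was lower by 0.11 (limma adjusted p = 0.0481), a call that ended in 15 of 23 fits with 1 library left out (largest adjusted p = 0.175, without cortex F112 mouse 6317) and turned to 0.33 and 0.43 with those scalings. In the GENCODE M21 annotation, 16.8% of the exonic bases of Syp are shared with the antisense gene Gm14703. The strand setting of the libraries, not given in the sources used here, bears on such genes.

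Of the active zone genes, 5 of 6 were higher in cortex as deposited, beside 21.5% of all genes. Bsn (bassoon), a giant scaffold protein, was 30.4, 34.2 and 44.1 RPKM in cortex and 8.47, 9.88 and 10.8 RPKM in cord, with all cortex libraries above all cord libraries (log2 difference 1.82, SE 0.058, limma adjusted p = 5.74e-18). Its partner Pclo (piccolo) was 15.8 ± 1.25 against 9.62 ± 0.47 RPKM (0.69). Rims1, which recruits calcium channels and priming factors, was 35.4 ± 3.79 against 11.6 ± 0.97 RPKM (1.57), and Unc13a, the priming factor Munc13-1, was 41.0 ± 4.01 against 20.0 ± 1.40 RPKM (1.02). Unc13b was low in both tissues at 4.63 ± 0.84 and 2.42 ± 0.12 RPKM (0.80). Rims2 was the exception, at 8.86 ± 0.63 in cortex and 10.7 ± 0.42 in cord (-0.26), and it turned to 0.16 and 0.13 with median-of-ratios scaling and quantile normalization.

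Of the 3 endocytic genes, 1 was higher in cortex (21.5% of all genes) and 2 were higher in cord (64.4%). Dnm1, the GTPase that pinches vesicles off, was 254 ± 28.6 RPKM in cortex and 227 ± 9.95 in cord (log2 difference 0.15, limma adjusted p = 0.0096), and its ranges overlapped. In NTg libraries alone the difference did not pass (0.12, limma adjusted p = 0.102). Amph (amphiphysin) was 37.0 ± 3.77 against 56.1 ± 1.11 RPKM (-0.59). Synj1, the phosphatase that helps strip the clathrin coat, was 34.9 ± 3.25 against 46.3 ± 1.11 RPKM (-0.41), and its difference was 0.02 with median-of-ratios scaling. Snph (syntaphilin), which anchors mitochondria in axons, was higher in cortex at 69.4 ± 9.86 against 44.8 ± 1.38 RPKM (0.61).

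Of 81 other presynaptic genes on a list drawn up with earlier results of these data known, 77 could be tested between the tissues, and 63 passed, 25 as higher in cortex and 38 as higher in cord. The share of all genes that passed was 85.9%, with 21.5% higher in cortex and 64.4% higher in cord. The 4 with the largest excess in cortex were Slc17a7 (7.69), the calcium-independent synaptotagmin relative Syt17 (3.02), Syt5 (2.13) and the active zone scaffold Erc2 (1.498), all as log2 differences. The 4 with the largest excess in cord were Sncg, or gamma-synuclein (-5.09), the acetylcholine transporter Slc18a3 (-3.91), the glutamate transporter Slc17a6 (-3.30) and Unc13c (-2.23).

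Ratios of paralogs within a library do not depend on how that library was scaled, and 17 pairs were compared between the tissues with a permutation test of 100000 resamples on the log2 ratio. Of these, 16 passed at an adjusted p under 0.05 over the 17 pairs, and the ratios of the tissues did not overlap in 11. In 4 pairs the larger gene changed in every library. In 8 pairs it was the same gene in every library of both tissues, and the other 5 were mixed within a tissue. Gene length and platform do not cancel from such ratios between the tables. How often other pairs of genes pass, do not overlap or change their larger gene was not measured. The 17 pairs were also chosen with earlier results of these data known. These counts therefore do not set the paralog pairs apart.

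Syt2 made up 3.60% ± 1.34 of the summed RPKM of Syt2 and Syt1 in cortex (SD, n = 11; range 1.71% to 6.53%) and 71.1% ± 1.84 in cord (n = 12; 68.4% to 73.5%). The log2 ratio shifted by -6.01 (SE 0.163), or 64.5-fold, with a permutation p of 1e-05, the smallest these resamples can give, and 1.21e-05 after adjustment. Vamp1 made up 8.88% ± 2.10 of Vamp1 and Vamp2 in cortex and 83.0% ± 0.86 in cord (log2 shift -5.66, or 50.5-fold). Cplx1 made up 43.6% ± 5.01 of Cplx1 and Cplx2 in cortex and 92.0% ± 0.27 in cord (-3.89). Cortex thus held near-equal complexins, with Cplx2 ahead in all 11 libraries, while cord was nearly all Cplx1. Sv2c made up 8.60% ± 4.52 of Sv2c and Sv2b in cortex and 61.2% ± 2.32 in cord (-4.11). The last 3 pairs had the same permutation p of 1e-05.

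Among the scaffolds, Pclo was 30.6% ± 1.90 of Pclo and Bsn in cortex and 49.7% ± 1.92 in cord, and Rims2 was 20.1% ± 2.19 of Rims2 and Rims1 against 48.0% ± 2.68. Dnm1 made up 94.3% ± 1.14 of Dnm1 and Dnm3 in cortex and 83.8% ± 1.01 in cord. Sv2b was 38.9% ± 5.57 of Sv2b and Sv2a in cortex and 18.3% ± 1.01 in cord.

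The smallest shifts were those of 3 pairs. Unc13b was 10.1% ± 1.09 of Unc13b and Unc13a in cortex and 10.9% ± 0.88 in cord (log2 shift -0.22, adjusted permutation p = 0.00148), and Syngr3 was 35.8% ± 2.29 of Syngr3 and Syngr1 against 32.7% ± 1.01 (0.19). Rab3c was 11.5% ± 1.59 of Rab3c and Rab3a against 10.7% ± 0.71 and did not pass (0.11, permutation p = 0.132). The Doc2b and Doc2a ratio, 41.4% ± 12.8 against 15.8% ± 1.53 for Doc2b, is uncertain, since 39.4% of the exonic bases of Doc2a are shared with the antisense gene Ino80e. For the remaining pairs the log2 shifts were 0.41 for Syn2 over Syn1, -2.62 for Sv2c over Sv2a, 1.75 for Synpr over Syp, -0.45 for Napb over Napa and 0.37 for Amph over Bin1.

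**Figure D2:**
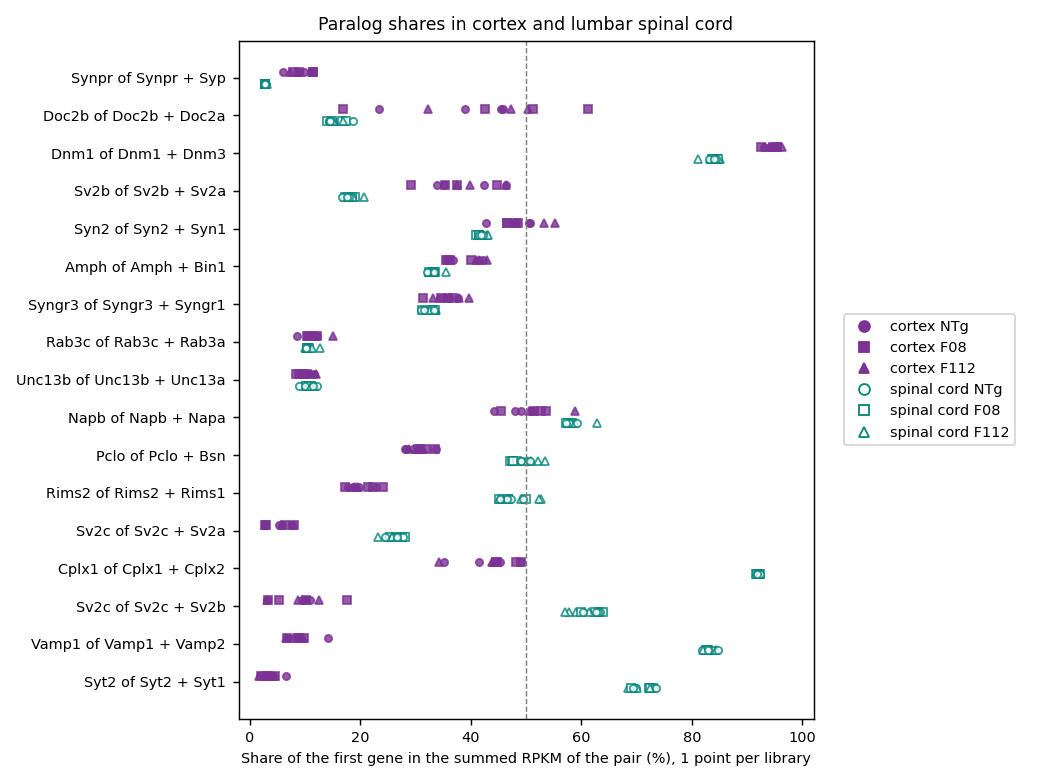
Share of the first-named gene in the summed RPKM of each of 17 paralog pairs, in percent, 1 point per library, with genotype as the symbol and tissue as the fill, and a dashed line at 50%. The pairs Syt2 with Syt1, Vamp1 with Vamp2, Cplx1 with Cplx2 and Sv2c with Sv2b cross the dashed line between the tissues. In most pairs the genotypes of a tissue overlap. Exceptions in cord are Pclo with Bsn and Syn2 with Syn1, where F08 lies below NTg and F112. In cortex, F112 lies below F08 for Cplx1 with Cplx2 and above it for Amph with Bin1. No pair passed between genotypes.

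Within a tissue, no genotype difference of these genes passed the test. By limma, 0 of the 32 genes passed in any of the 6 genotype comparisons. Across all genes, 0.00721% passed in cortex for F112 against NTg, 0.0% for F08 against NTg and 0.0% for F112 against F08. In cord these shares were 0.00723%, 0.00723% and 0.0217%, so almost no gene of any kind passed. At an unadjusted p under 0.05 in cortex there was 1 of the 32 for F112 against NTg (1.97% of all genes), 0 for F08 against NTg (2.61%) and 2 for F112 against F08 (2.47%). In cord there were 2 (7.11% of all genes), 0 (4.1%) and 6 (10.4%). Of the other presynaptic genes, 0 of 80 in cortex and 0 of 78 in cord passed in any genotype comparison, and at an unadjusted p under 0.05 there were 0 to 1 per comparison in cortex and 0 to 9 in cord.

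The median log2 differences of the 32 genes in cortex were 0.01 for F112 against NTg, -0.02 for F08 against NTg and 0.05 for F112 against F08, beside medians of all genes of -0.02, -0.00 and -0.02. In cord they were -0.01, 0.02 and -0.03, beside -0.01, 0.01 and -0.02. In cord the 95% intervals of all 32 genes lay between -0.25 and 0.23 for F112 against NTg, between -0.21 and 0.25 for F08 against NTg and between -0.31 and 0.20 for F112 against F08. In cortex they reached from -1.10 to 1.15 for F112 against NTg, from -1.02 to 0.93 for F08 against NTg and from -0.94 to 1.06 for F112 against F08. The widest for F112 against NTg belonged to the variable genes Sv2c, Doc2b and Syt2. A p that misses the threshold does not show equal levels, and these intervals give the sizes that the data leave possible.

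**Figure D3:**
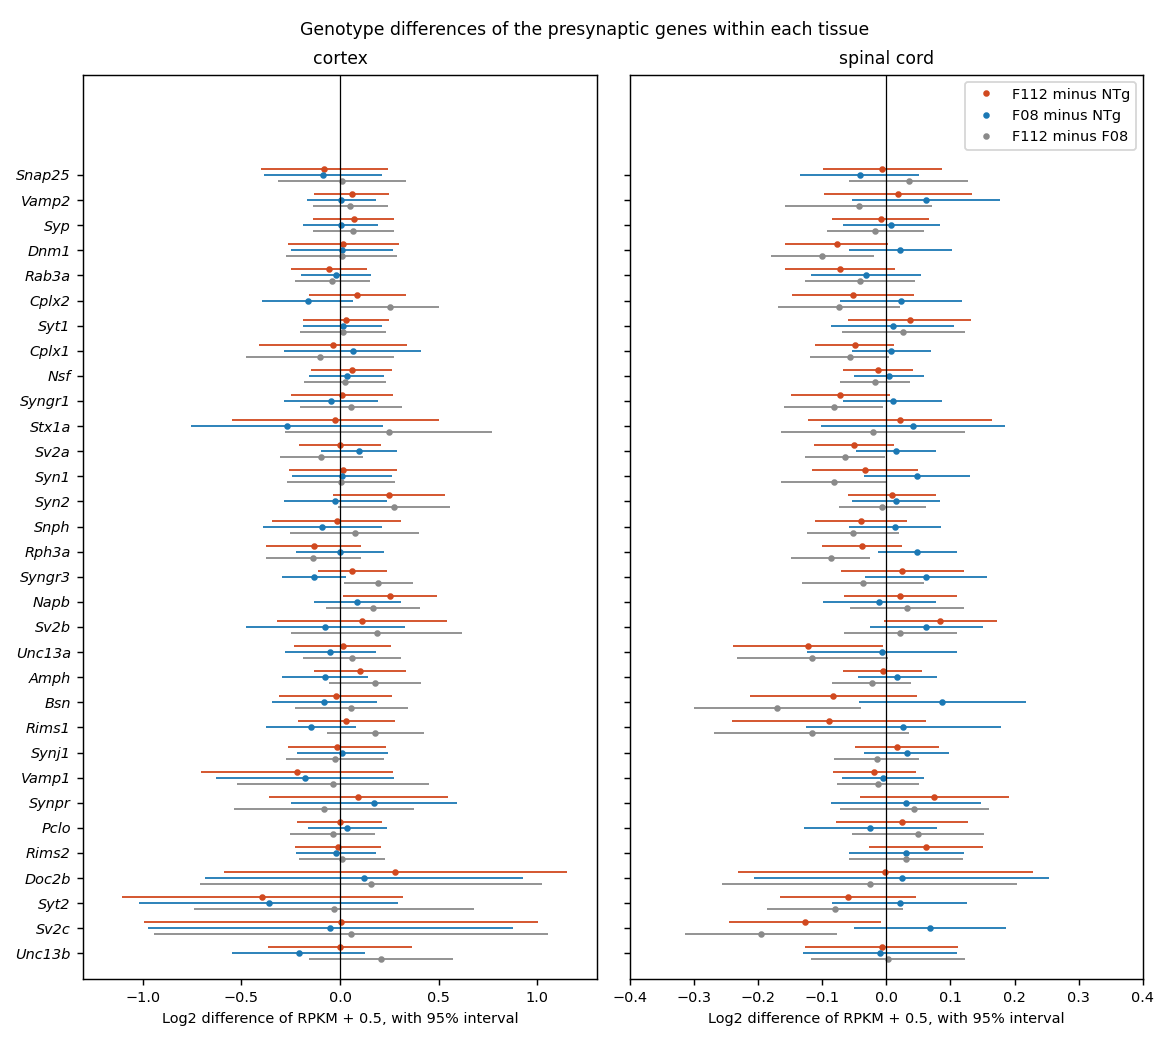
Log2 differences between genotypes for the 32 genes, with points for the estimate and lines for the 95% interval, in cortex and in spinal cord, ordered by mean level in cortex. The axis of the cord panel is narrower, and no gene passed the adjusted threshold in either panel.

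In cortex, the complexin Cplx2 and the synaptogyrin Syngr3 had F112 values that did not overlap those of F08. Genes whose F112 range lay wholly above the F08 range were 1.52% of all genes tested, and 0 of the 32 lay wholly below (2.05% of all). For F112 against NTg, 0 of the 32 lay wholly above (1.19%) or below (1.86%), and for F08 against NTg 0 above (0.822%) or below (0.873%). Cplx2 was 256, 243 and 258 RPKM in F112 mice 6316, 6317 and 6324 and 222, 196, 204.5 and 225 RPKM in F08 mice 6318, 6319, 6320 and 6321. The NTg mice overlapped both groups, at 225, 200.02, 286 and 245 RPKM. The difference between F112 and F08 was 0.25 (SE 0.114, limma adjusted p = 1.00), with an exact permutation p of 0.0286, the smallest this design allows, and 0.171 adjusted over the 6 comparisons of the gene.

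Syngr3 was 67.2, 71.5 and 73.1 RPKM in F112 and 64.9, 65.1, 59.0 and 57.7 RPKM in F08, while NTg mice had 68.7, 70.8, 69.6 and 61.6 RPKM. In F112, 2 of 3 mice were above every NTg mouse and 1 was inside the NTg range (difference from F08 0.19, SE 0.081, limma adjusted p = 1.00). Napb was 76.5, 65.0 and 77.3 RPKM in F112 against 61.6, 60.0, 68.0 and 54.6 in NTg, with 1 F112 mouse inside the NTg range (difference 0.25, SE 0.110, exact permutation p = 0.0857, limma adjusted p = 1.00). In cortex, 5 libraries of 13115500 to 14715900 alignments stood apart from 6 of 9398450 to 11512300. Within these deeper and shallower classes the median difference of the 32 genes between F112 and F08 was 0.10 and 0.03, and between F112 and NTg 0.07 and -0.01. The class of deeper libraries held 1 F112 mouse, 6324. Its cortical Xist was 0.35 RPKM, against 31.4 and 33.0 RPKM in F112 mice 6316 and 6317. Depth and Xist level therefore cannot be told apart within cortex F112.

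In cord, 3 genes had F112 values wholly below those of F08, Sv2a, Dnm1 and Rph3a, beside 4.18% of all genes, and 0 lay wholly above (1.36%). For F112 against NTg in cord, 0 lay wholly above (0.976%) or below (2.1%), and for F08 against NTg 0 above (2.57%) or below (1.52%). Dnm1 was 225, 226, 199 and 223 RPKM in F112 mice 6316, 6317, 6324 and 6325, and 237, 235, 233 and 229.6 RPKM in F08. The NTg mice lay between and across, at 235, 231.5, 226 and 228 RPKM. The difference was -0.10 (SE 0.038, limma adjusted p = 0.428), and it was -0.06 without F112 mouse 6324. Rph3a was 201.5, 200.2, 189.8 and 198 RPKM in F112 and 210.3, 213, 209 and 205 RPKM in F08 (-0.09, SE 0.029, limma adjusted p = 0.406). Sv2a was 117, 119, 114 and 119.7 RPKM in F112 and 128, 122, 119.7 and 123 RPKM in F08, so that the groups nearly touched (-0.06, limma adjusted p = 0.467). For each of the 3 genes the exact permutation p was 0.0286, and 0.171 adjusted over 6 comparisons.

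Sv2c had the smallest p among the 32 genes in cord. It was 38.8, 36.3, 39.8 and 43.6 RPKM in F112, 46.0, 46.8, 47.0 and 41.9 RPKM in F08 and 43.0, 45.5, 44.7 and 40.0 RPKM in NTg. F112 mice tended to the low end with 1 exception, mouse 6325. The difference was -0.20 from F08 (SE 0.056, limma p = 0.00315 unadjusted and 0.406 adjusted, exact permutation p = 0.0571). From NTg it was -0.13 (limma adjusted p = 0.680). Bsn (-0.17) and Syngr1 (-0.08) also had an unadjusted limma p under 0.05 for F112 against F08, with adjusted p of 0.412 and 0.459. Unc13a did so for F112 against NTg (-0.12, adjusted p = 0.684). Without mouse 6324 the Syngr1 difference was -0.05. The cord library of that mouse had the lowest median level of the 32 genes (-0.08 log2 units from the mean of the libraries), together with the lowest Gapdh, 1353 RPKM against 1353 to 1572 over all, and the lowest Rbfox3, a neuronal nuclear protein, at 39.8 RPKM in a range to 47.3. The part of these values in the differences was not tested.

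Whether a genotype difference differed between cortex and cord was tested as the difference of both. Of the 32 genes, 0 passed, beside 0.00763%, 0.00763% and 0.0% of all genes for F112 against NTg, F08 against NTg and F112 against F08. At an unadjusted p under 0.05 there were 0 (3.58% of all genes), 1, Syngr3 (2.94%), and 4 (4.0%), and the 4 were Cplx2, Rims1, Syn2 and Syngr3. Paralog ratios were also compared between genotypes, with exact permutation tests over 17 pairs and 6 comparisons. The smallest adjusted p was 0.448, and 5 tests had an unadjusted p under 0.05. These were Cplx1 over Cplx2 in cortex for F112 against F08 (-0.35), Pclo over Bsn in cord for F08 against NTg (-0.11) and F112 against F08 (0.22), and Syn2 over Syn1 in cord for the same contrasts (-0.03 and 0.08). The last 4 share the F08 libraries.

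The presynaptic genes also differed in how stable they were among mice. Over genes of at least 5 RPKM, the median SD of log2 levels among cortex libraries was 0.156 for 30 of the 32 genes and 0.161 for all genes. In cord it was 0.062 for 30 of the 32 and 0.069 for all. In cord, Nsf and Vamp1 were the steadiest with Amph, with coefficients of variation of 1.24%, 2.08% and 1.97%. In cortex the most variable were Sv2c at 44.5%, Syt2 at 37.9%, Doc2b at 37.0%, Vamp1 at 24.6% and Stx1a at 23.96%. Of these 5, Sv2c, Syt2 and Vamp1 were the 3 genes with the largest excess in cord.

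Sv2c in cortex varied within every genotype. In RPKM it was 2.03, 5.26, 6.79 and 5.46 in NTg mice 6322, 6323, 6326 and 6327, 5.67, 2.67, 2.65 and 8.44 in F08 mice 6318 to 6321, and 2.33, 7.15 and 5.41 in F112 mice 6316, 6317 and 6324. Ppp1r1b, or DARPP-32, a marker of striatal projection neurons, was 30.4, 146, 275 and 147 RPKM in the same NTg mice, 145, 31.6, 35.1 and 192 RPKM in F08 and 43.3, 181 and 105 RPKM in F112. Mice 6322, 6319, 6320 and 6316 were the lowest for both genes. All 8 measured genes of a striatum list had a mean of at least 0.5 RPKM, and their sum was 98.3 to 884 RPKM in NTg mice, 107 to 650 RPKM in F08 mice and 132 to 653 RPKM in F112 mice. The part of striatal tissue in the Sv2c level was not tested. Stx1a was 57.6 to 91.3 RPKM in the 5 deeper cortex libraries and 83.2 to 121 RPKM in the 6 others, and Sv2b was 39.3 to 56.9 and 49.7 to 75.5 RPKM. Gapdh went the other way, at 142 to 180 and 83.6 to 108 RPKM. Depth and these levels moved together, and the part of depth was not tested. Mouse 6327 (NTg) had the highest cortical Syt2, Vamp1 and Cplx1, at 13.1, 50.9 and 237 RPKM, and mouse 6324 (F112) the lowest, at 3.30, 23.01 and 134 RPKM.

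**Figure D4:**
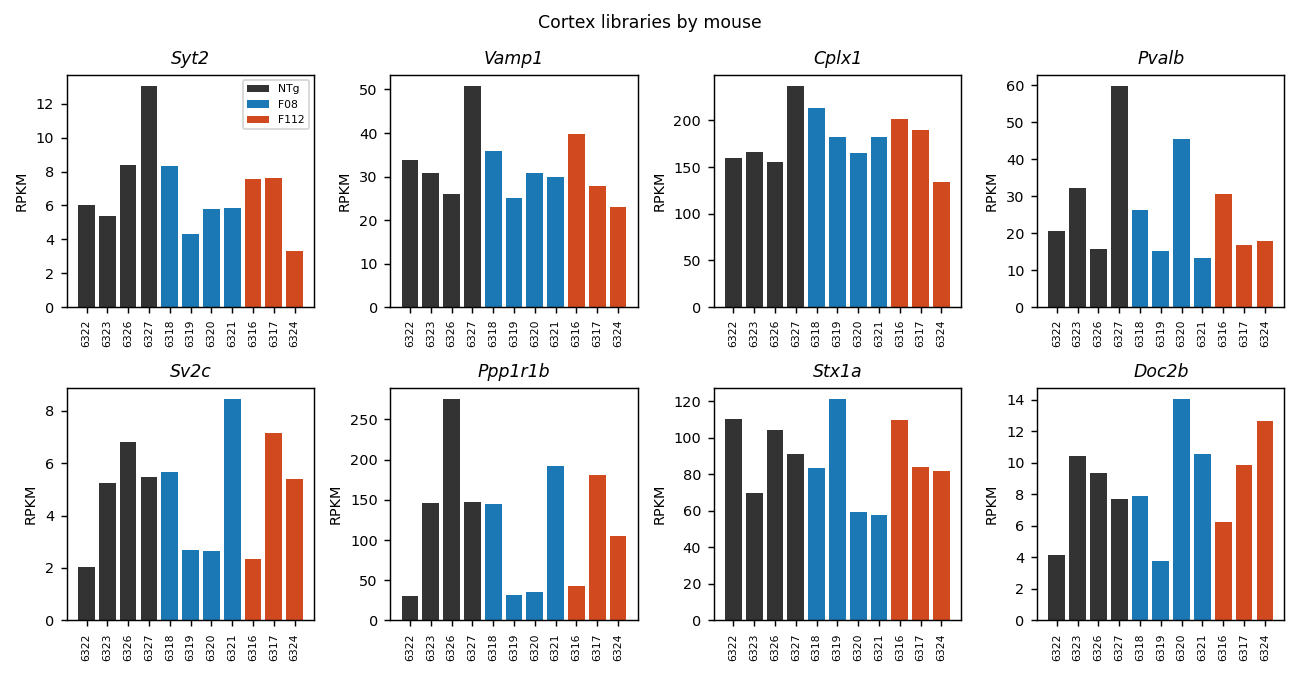
RPKM in each of the 11 cortex libraries, by mouse and coloured by genotype, for 6 presynaptic genes and for Pvalb and Ppp1r1b, which mark parvalbumin interneurons and striatal projection neurons. Sv2c and Ppp1r1b are both low in mice 6322, 6319, 6320 and 6316, and Syt2, Vamp1, Cplx1 and Pvalb all peak in mouse 6327.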

How the data were processed

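RNA sequencing gave 23 libraries from cortex and lumbar spinal cord. The authors deposited 1 table of RPKM values per tissue, with the number of alignments of each library. TopHat2 (2.0.8b), Partek, mm9 and mm10 appear in the submitters' processing notes. Which of them served which table, the gene assignment and the strand setting are not stated there. A count model needs read counts and was therefore not applied.

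The low-value filter was a tissue mean of 0.5 RPKM and left 13865 genes in cortex and 13839 in cord. Values were transformed as log2(RPKM + 0.5), so fold changes of low genes are understated, and fitted with limma 3.58.1 in R 4.3.3 (empirical Bayes with a mean-variance trend, two-sided, Benjamini-Hochberg over all genes kept, called under 0.05). The 3 genotypes of a tissue shared 1 fit. The tissue comparison used all 23 libraries and 13101 genes kept in both tables, as the mean of the tissue differences of the 3 genotypes. Paralog ratios and single genes were tested with two-sided permutation tests written in Python with numpy 2.4.6. The fit was tested on simulated data. Exact tests between genotypes allow no p below 0.0286. The labels do not say how mice were assigned or housed. Within a tissue, p-values measure the spread between these mice. Those of the main tissue comparison treat the 23 libraries as independent, although 11 mice gave both tissues. They measure the spread of libraries around a split that is also the platform split.

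The 11 mouse numbers that occur in both tissues mark the same animals. Deviations of both tissues from their group means, compared across genes, had a correlation of 0.0268 to 0.231 per mouse, and the fit with the mouse as a replicate block was run as an alternative.

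The members, the lists of other genes and the pairs were chosen with earlier results of these data known. All 32 members are named; of the other presynaptic genes, the 4 largest called tissue differences in each direction are named, with the partners of each pair. A further paralog is not reported here. The depth classes, the 6 relations among cortical genes and the leave-out of mouse 6324 named in the text were chosen after the values were seen. Alternatives were other pseudocounts (0.1 and 1), no filter or a filter at 5 RPKM, other scalings, robust empirical Bayes, only the groups compared, Xist class or alignments as a covariate, NTg libraries only, leaving out each library, and leaving out 3 cortex libraries rich in Ttr. Gene positions came from GENCODE M21 and promoters from RefSeq (GRCm38.p6).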

Additional observations from a re-analysis of the deposited data

Results flagged for a closer look

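In 160 groups of 4 libraries (32 genes in 5 groups; cortex F112 with 3 libraries was not examined), 8 had 1 library far from the other 3, by a gap of more than 0.829 of the range. Chance gives this in about 5% of such groups. In cortex NTg, Syt1 was 172 RPKM in mouse 6323 against 185 to 187 in the others, and Cplx1 was 237 RPKM in mouse 6327 against 155 to 166. In cortex F08, Pclo was 18.5 RPKM in mouse 6319 against 15.0 to 15.5. In cord NTg, Snap25 was 1194 RPKM in mouse 6326 against 1063 to 1077, and Sv2a was 118 RPKM in mouse 6323 against 122.5 to 123. The other 3 came from the same cord library of F112 mouse 6324, with Dnm1 at 199 RPKM against 223 to 226, Amph at 55.2 against 55.9 to 56.0, and Napb at 111 against 97.3 to 98.9. No cause of these values was tested.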

How the results depend on the processing

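The 0 calls between genotypes held under each alternative, and the count of genes higher in cortex than cord was 15 to 22 over them. The count higher in cord was 13, and over the alternatives 12 to 13 except 9 with median-of-ratios scaling and 8 with quantile normalization. Leaving out each library gave 17 throughout and 12 to 13. Directions turned with median-of-ratios scaling for Rab3a (0.39), Rims2 (0.16), Syn1 (0.33) and Synj1 (0.024), and with quantile normalization for Rab3a (0.38), Rims2 (0.13), Sv2a (0.074) and Syn1 (0.43). With the mouse as a replicate block the counts stayed at 17 and 13, and 16 paralog pairs passed as before (Vamp1 over Vamp2 at -5.65, exact permutation). In NTg libraries alone, Unc13b over Unc13a was -0.12 and did not pass (adjusted p = 0.334); those groups hold 4 libraries each. Rab3c over Rab3a ranged from 0.066 to 0.16 over the leave-outs and passed without NTg mouse 6327 (0.16, adjusted p = 0.012). With a filter at 5 RPKM, Sv2c, Unc13b and Doc2b gave no value in a tissue where their mean was lower. Precision was lower in cortex, where the median standard error for F112 against NTg was 0.12, against 0.042 in cord.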

Other observations

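Among the 11 cortex libraries, Syt2, Vamp1, Cplx1 and the interneuron marker Pvalb were compared pairwise in 6 relations chosen after their values were seen. Pearson's r was 0.777 for Syt2 with Vamp1 (permutation p = 0.00557, adjusted p = 0.0106; Spearman's rho 0.555, p = 0.0815, adjusted p = 0.163). For Vamp1 with Cplx1 it was 0.792 (p = 0.00355, adjusted p = 0.0106; rho 0.645, p = 0.0362, adjusted p = 0.109). For Syt2 with Cplx1 it was 0.762 (p = 0.00709, adjusted p = 0.0106; rho 0.509, p = 0.115, adjusted p = 0.172). For Vamp1 with Pvalb it was 0.753 (p = 0.00709, adjusted p = 0.0106; rho 0.709, p = 0.0178, adjusted p = 0.107). The relations of Pvalb with Syt2 and Cplx1 were weaker (r 0.492 and 0.453, adjusted p = 0.150 and 0.163). Without mice 6327 and 6324, r fell to 0.352, 0.474, 0.292 and 0.559 in the order given. These are the mice farthest from the median, so a lower r there is partly built in. The first 3 relations rest largely on them, and that of Vamp1 with Pvalb less so. The libraries share their depth classes, and within-class values rest on 5 and 6 libraries.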
